A study of Mus musculus with 16 samples.

Results

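The tubulin genes are 10 listed alpha and beta tubulin genes of the mouse, measured in N25/2 cells that were kept with or without amino acids. The genes listed were Tuba1a, Tuba1b, Tuba1c and Tuba4a for alpha tubulin and Tubb2a, Tubb2b, Tubb3, Tubb4b, Tubb5 and Tubb6 for beta tubulin. A gene counted as measured where the array annotation gives it a row with no other symbol, and 7 of the 10 had such a row, out of 19938 genes measured in all. Tuba1b, Tuba1c and Tubb4b appear only on rows shared with other symbols. The genes were selected on their levels and their deprived minus control differences at every time, which were known when the list was drawn up, so all values of these 7 genes below are descriptions and carry no test.

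N25/2 is an immortalized line from embryonic mouse hypothalamus, grown in serum-containing medium and then placed in medium lacking amino acids (deprived) or holding them (control). Samples were taken after 1, 2, 3, 5 and 16 h. At 5 h there were 4 deprived and 4 control arrays, and at each other time 1 deprived and 1 control array, so the differences at 1, 2, 3 and 16 h have no replicate check. The labels do not say whether the 4 arrays of a group came from separate cultures, so errors and p-values cover only the variation among these arrays, part or all of which may be technical.

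Alpha and beta tubulin join into dimers, and the dimers polymerize into microtubules, the filaments that separate chromosomes in mitosis and carry transport along axons. Mammals have several genes for each chain, and their products, called isotypes, differ mostly in the acidic C-terminal tail. Cells adjust tubulin mRNA to the pool of free dimers: when dimers are in excess, the protein Ttc5 recognizes nascent tubulin chains on the ribosome and their mRNAs are degraded, a process called autoregulation. In the developing brain tubulin is made in large amounts, and Tubb3 serves as a marker of neurons.

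Values are the deposited log2 levels, from 3.07 to 14.2 over the table, with array medians of 7.02 to 7.12. A log2 difference of -1 means a level 2-fold lower. Levels of different rows depend on their probes and are not compared between genes. The amino acid response, which marks deprivation, was higher in deprived cells: all 6 of its genes checked rose at 5 h, with a median difference of 1.85, among them Trib3 by 2.52 (SE 0.12), Chac1 by 2.12 (SE 0.10), Ddit3 by 1.77 (SE 0.14) and Asns by 1.01 (SE 0.12). Their adjusted p in limma were 1.74e-05, 1.8e-05, 0.000187 and 0.00178. Of 13 neuron markers only Stmn2 and Map2 lay above the median level of all genes on every array, as did 4 of 8 neural progenitor markers (Nes, Sox2, Hes5 and Notch1) and 4 of 10 fibroblast and mural markers (Col1a1, Pdgfrb, Acta2 and Fn1). The same held for 2 of 8 astrocyte, 1 of 8 microglia and none of 7 oligodendrocyte and 8 endothelial markers. The mean level of the fibroblast and mural list ran from 8.55 to 9.30 on deprived and from 9.26 to 9.57 on control arrays. That of the progenitor list ran from 7.56 to 7.93 on deprived and from 7.82 to 8.17 on control arrays, and that of the neuron list from 6.65 to 6.82 on deprived and from 6.70 to 6.89 on control arrays. At 5 h none of the 10 fibroblast and mural genes passed in limma, of the progenitor markers Nes did, and of the astrocyte markers Gja1, which fell by 0.76 (SE 0.08, adjusted p = 0.00102). With the array number as a block, which called 10 percent of all genes lower, 3 fibroblast and mural, 2 progenitor, 2 microglia, 1 astrocyte and 1 oligodendrocyte marker were lower. Without both arrays numbered 4, where 7.17 percent of all genes were lower, 2 fibroblast and mural, 2 progenitor, 1 microglia and 1 astrocyte marker were lower. No oligodendrocyte marker passed in that fit, and no neuron or endothelial marker passed in any of these fits. The part of these cell type genes in the tubulin differences was not tested, and in bulk RNA fewer cells of a kind and less RNA per cell cannot be told apart. The 2 arrays numbered 4 at 5 h stood apart from the rest, and the tubulin differences and list counts at 5 h are given with and without them.

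Among the alpha tubulin genes, Tuba1a, the alpha isotype known from migrating and differentiating neurons, was lower in deprived cells at 5 h. Its log2 levels on arrays 1 to 4 were 11.33, 11.55, 11.59 and 12.14 in deprived cells, against 12.27, 12.35, 12.27 and 12.90 in control cells. Every deprived array lay below every control array, by at least 0.13, and array 4 was the highest in both groups. The difference of the means was -0.79 (SE 0.19 in limma, n = 4 each), which is 57.7 percent of control. Without both arrays numbered 4 it was -0.81.

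Tuba4a codes for an alpha isotype whose gene does not encode the terminal tyrosine. Its levels were 10.28, 10.42, 10.12 and 10.68 on the deprived arrays, against 10.65, 10.46, 10.55 and 10.67 on the control arrays. The groups overlapped, since deprived array 4 was the highest of the 8. The difference was -0.21 (SE 0.12), or -0.12 without deprived array 3. With both arrays numbered 4 left out it was -0.28, with no overlap among the other 6 arrays.

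Among the beta tubulin genes, Tubb2a, a beta isotype abundant in brain, had the largest difference of the 7 genes at 5 h. Its levels were 8.66, 8.82, 8.62 and 9.50 in deprived cells, against 9.94, 9.69, 9.69 and 10.47 in control cells. The groups did not overlap, with 0.18 between the highest deprived and the lowest control array. The difference was -1.05 (SE 0.23), a 2.07-fold lower level in deprived cells. Same-numbered arrays differed by -0.87 to -1.28, and without both arrays numbered 4 the difference was -1.07.

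Tubb2b, which codes for a beta isotype of immature neurons, stands beside Tubb2a in the genome with 1 annotated gene between them. Its levels were 9.14, 9.41, 9.16 and 10.21 on deprived arrays 1 to 4, against 10.48, 10.24, 10.16 and 10.96 on the control arrays. Deprived array 4 lay just above control array 3, and the other 3 deprived arrays were below all controls. The difference was -0.98 (SE 0.25), or 50.7 percent of control, and -1.06 without both arrays numbered 4. The pairs of the same number differed by -0.75 to -1.34.

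Tubb6, a beta isotype of many non-neuronal tissues, showed the widest gap between groups. Deprived arrays were at 10.16, 10.37, 10.15 and 10.65, and control arrays at 11.30, 11.04, 10.92 and 11.43. The highest deprived array was 0.27 below the lowest control array. The difference was -0.84 (SE 0.15), or 55.8 percent of control, and -0.86 without both arrays numbered 4.

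Tubb5, the beta isotype made in nearly all cells, differed much less at 5 h. Its levels were 12.61, 12.77, 12.64 and 13.14 in deprived cells, against 13.06, 12.86, 12.93 and 13.21 in control cells. Deprived array 4 exceeded 3 of the 4 controls, so the groups overlapped, and without both arrays numbered 4 they did not. The difference was -0.23 (SE 0.13), and all 4 same-numbered pairs had the lower value on the deprived array, with differences of -0.46 to -0.07. It was -0.35 without deprived array 4 and -0.28 without both arrays numbered 4.

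Tubb3, the isotype used to mark neurons, was dim on every array. Its level exceeded that of 20.4 to 26.9 percent of the genes, depending on the array, and the table gives no detection call for it. The levels were 5.87, 5.82, 5.97 and 5.89 in deprived cells, against 5.96, 6.01, 6.01 and 5.88 in control cells. The groups overlapped, the difference was -0.08 (SE 0.07; -0.11 without both arrays numbered 4), and at a level this low a change in the mRNA may not be visible.

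**Figure D1:**
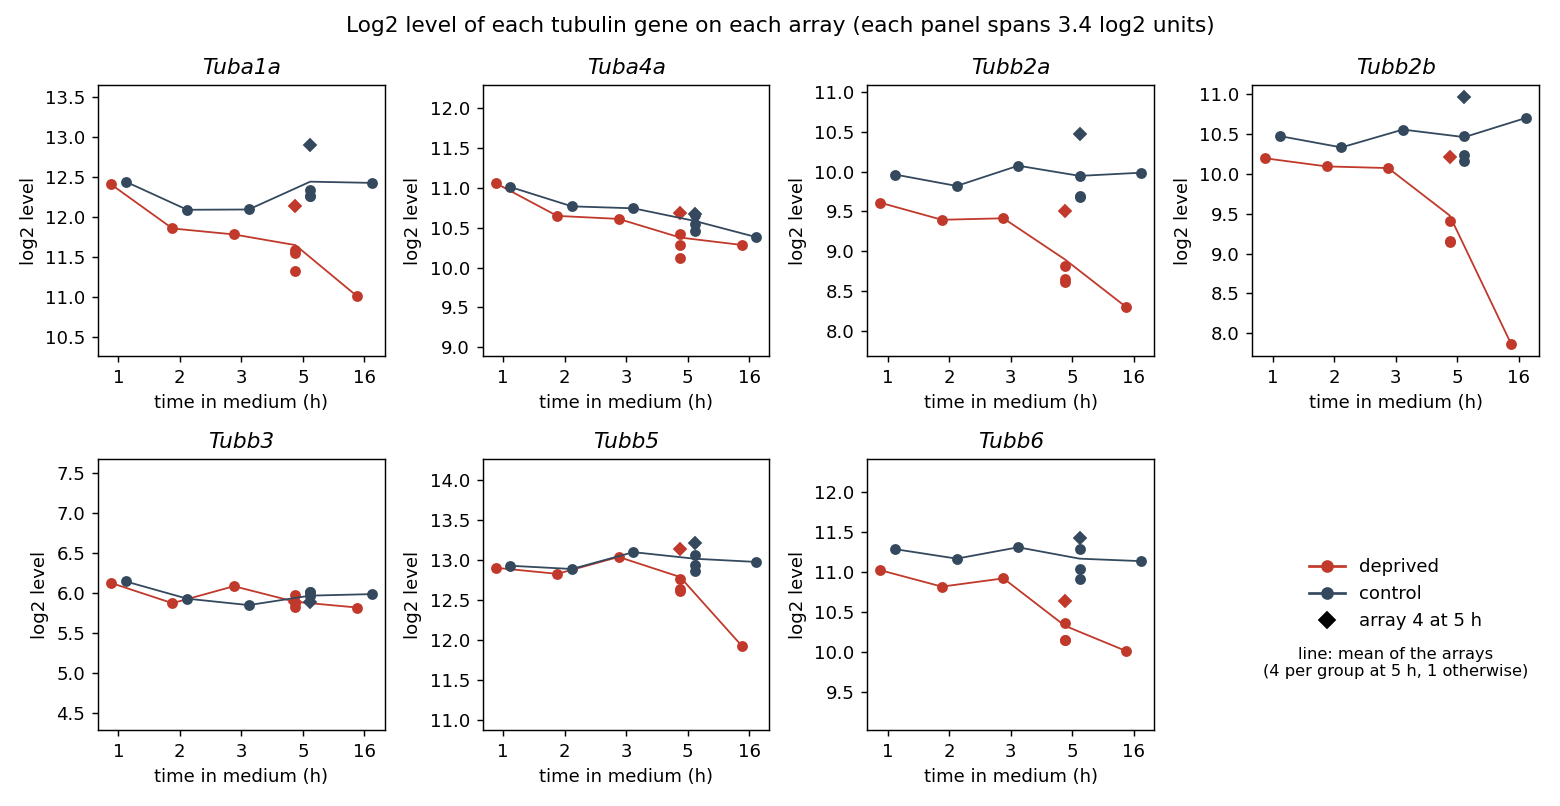
Log2 level (vertical axis) of the 7 tubulin genes against time in medium (horizontal axis, in hours and not to scale), with deprived arrays in red and control arrays in dark blue, each point 1 array and each line the mean. Diamonds mark the arrays numbered 4 at 5 h, and at 16 h Tubb2b is at 7.87 on the deprived and 10.70 on the control array.

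Taking the 7 genes side by side at 5 h, all had a lower mean in deprived cells, with differences from -1.05 to -0.08 and a median of -0.79, against a median of -0.01 over all 19938 genes. For 3 of them (Tuba1a, Tubb2a and Tubb6) every deprived array was below every control array, which held for 5.38 percent of all genes. Without both arrays numbered 4 it held for 6 of the 7, all but Tubb3, and for 16.4 percent of all genes. Since the genes were listed with the 5 h values known, these counts only describe the list.

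The search of RefSeq promoter windows, in the GRCm38.p6 build, covered 8 of the 10 tubulin genes, all but Tubb2b and Tubb6. A whole chromosome was left out of the search, so a gene without a window here may still be listed in RefSeq. It is not the chromosome of Tubb2b, whose neighbour Tubb2a has a window. The 250 bases before the start site are shown for Tubb2a, with the largest 5 h difference, for Tuba1a, the alpha gene that was lower along with it, for Tubb5, which was lower mainly at 16 h, and for the dim Tubb3. They lie at chr13:34078009-34078258, chr15:98953502-98953751 and chr17:35838302-35838551 on the minus strand and at chr8:123411303-123411552 on the plus strand, and are written 5′ to 3′ along the gene. Capitals mark matches on either strand to 5 motifs, chosen with the sequences in view: CCAAT, the CCAAT box; TGACGTCA, the cAMP response element; GGGCGG, the GC box; TATAAA, the TATA box; and TGATGNAA, a form of the element that Atf4 and C/EBP factors bind together.
Tubb2a promoter: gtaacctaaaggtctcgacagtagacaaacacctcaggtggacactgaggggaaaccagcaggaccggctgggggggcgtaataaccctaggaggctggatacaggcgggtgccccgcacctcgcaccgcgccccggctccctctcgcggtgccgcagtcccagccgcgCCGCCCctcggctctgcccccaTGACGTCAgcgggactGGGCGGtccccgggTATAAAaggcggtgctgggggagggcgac
Tuba1a promoter: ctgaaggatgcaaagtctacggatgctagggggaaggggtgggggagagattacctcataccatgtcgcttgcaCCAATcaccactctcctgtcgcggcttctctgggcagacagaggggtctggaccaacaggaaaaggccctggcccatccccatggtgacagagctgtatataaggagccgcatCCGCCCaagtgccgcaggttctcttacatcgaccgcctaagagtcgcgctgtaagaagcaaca
Tubb5 promoter: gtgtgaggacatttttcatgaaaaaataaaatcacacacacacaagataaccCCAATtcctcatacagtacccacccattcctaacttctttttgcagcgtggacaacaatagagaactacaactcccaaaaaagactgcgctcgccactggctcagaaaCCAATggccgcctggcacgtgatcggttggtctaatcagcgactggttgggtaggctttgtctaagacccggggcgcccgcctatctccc
Tubb3 promoter: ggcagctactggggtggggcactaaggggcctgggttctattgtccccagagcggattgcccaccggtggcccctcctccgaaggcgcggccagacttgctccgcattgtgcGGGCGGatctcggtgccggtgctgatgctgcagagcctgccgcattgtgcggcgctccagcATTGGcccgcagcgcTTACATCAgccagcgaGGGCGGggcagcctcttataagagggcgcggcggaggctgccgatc

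The Tubb2a window holds TGACGTCA 59 bases before the start and TATAAA 29 bases before it, along with 2 GC boxes. Of 32851 RefSeq windows of this length searched, 1.55 percent hold TGACGTCA and 12.37 percent TATAAA, and neither exact string is in the other 7 tubulin windows. CCAAT stands 1 time in the Tuba1a window and 2 times in that of Tubb5, in 5 of the 8 tubulin windows in all, and in 33.85 percent of all windows. The Tubb4b window, not shown, has 5 copies of it. TGATGNAA was found only in the Tubb3 window among the 8, against 3.45 percent of all windows, and GGGCGG in 6 of the 8 against 32.74 percent. These matches describe letters in a window, not bound sites, and variant forms of the motifs were not searched.

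The arrays numbered 4 held most of the 7 tubulin genes at a higher level in both groups. Tubb2b stood 0.97 above the mean of the other 3 arrays on deprived array 4 and 0.66 above it on control array 4. The offsets on the deprived array 4 were 0.80 for Tubb2a, 0.65 for Tuba1a and 0.42 for Tubb6, and those on the control array 4 were 0.70, 0.61 and 0.35 for these genes. The offset had the same direction in both groups for these genes, and 6 of the 7 genes, all but Tubb3, had their highest value on array 4 in both. Of all genes, 28.3 percent had this pattern. With the array number as a block, the SE of the Tubb2a difference was 0.07 in place of 0.23, and that of the Tuba1a difference 0.06 in place of 0.19. The block treats all same-numbered arrays as pairs, which was not settled for those not numbered 4. Why the arrays numbered 4 stood apart was not tested.

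**Figure D2:**
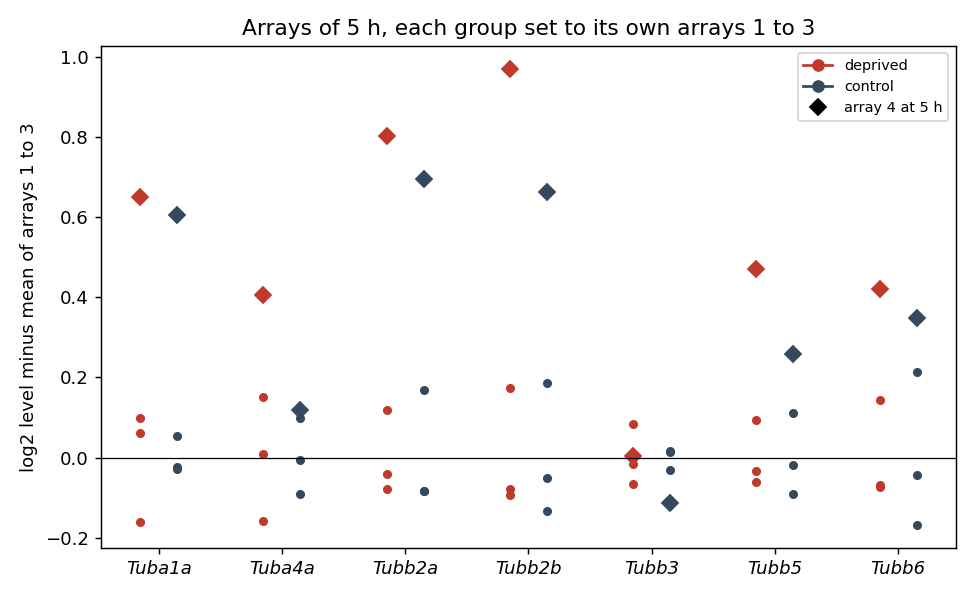
Log2 level at 5 h minus the mean of arrays 1 to 3 of the same group (vertical axis) for each tubulin gene, with deprived arrays in red left of control arrays in dark blue and array 4 as a diamond. Array 4 lies 0.97 above the others in deprived cells and 0.66 in control cells for Tubb2b, and Tubb3 shows no such offset.

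Over time the tubulin genes differed in when and how far they were lower. At 1 h the deprived array was lower by 0.35 for Tubb2a (9.61 deprived, 9.96 control), by 0.28 for Tubb2b (10.19 deprived, 10.47 control) and by 0.26 for Tubb6 (11.03 deprived, 11.29 control). At that time Tuba1a, Tubb5 and Tubb3 differed by -0.03, -0.03 and -0.02 and Tuba4a by 0.05. None of these has an error of its own, and the control arrays of 1, 2, 3 and 16 h ranged over 0.25 for Tubb2a, 0.37 for Tubb2b and 0.17 for Tubb6.

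At 2 h the differences were -0.42 for Tubb2a, -0.35 for Tubb6, -0.24 for Tubb2b and -0.23 for Tuba1a. By 3 h they were -0.66 for Tubb2a, -0.48 for Tubb2b, -0.39 for Tubb6 and -0.31 for Tuba1a. Tubb5 differed by -0.06 at both times, and Tubb3 by -0.06 at 2 h and 0.24 at 3 h. Tubb2a, Tubb2b and Tubb6 were thus lower on the deprived array at each time before 5 h, by more than Tubb5 was at any of them.

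At 16 h the differences were larger in size than at 5 h for all of the 7 genes but Tuba4a. Tubb2b was at 7.87 on the deprived and 10.70 on the control array, a difference of -2.83 or 14.1 percent of control. Tubb2a was at 8.30 on the deprived and 9.99 on the control array (-1.68), and Tuba1a at 11.01 on the deprived and 12.43 on the control array (-1.42). Tubb6 was at 10.01 on the deprived and 11.14 on the control array (-1.13). Tubb5, which had differed by -0.23 at 5 h, was at 11.93 on the deprived and 12.98 on the control array, a difference of -1.05. These 5 genes were lower by at least 1 at 16 h, as were 2.97 percent of all genes on these 2 arrays. On the same arrays the median difference was -0.58 for the fibroblast and mural markers, -0.41 for the progenitor markers, -0.40 for the astrocyte markers and -0.56 for the actins, against -0.04 for all genes. Their part in the tubulin differences was not tested. The changes between 5 h and 16 h were not tested, since each group had 1 array at 16 h.

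Tuba4a had lower levels at later times in both groups. On the deprived arrays it was at 11.06, 10.65 and 10.61 at 1, 2 and 3 h, averaged 10.38 ± 0.24 at 5 h (SD, n = 4) and was at 10.28 at 16 h. On the control arrays it was at 11.01, 10.77 and 10.74 at 1, 2 and 3 h, averaged 10.58 ± 0.10 at 5 h (SD, n = 4) and was at 10.38 at 16 h. The 16 h difference of -0.10 was smaller in size than that of 5 h. For Tubb2a, Tuba1a and Tubb5 the deprived arrays of 16 h and 1 h differed by -1.31, -1.40 and -0.98, and the control arrays of these times by 0.02, -0.02 and 0.05.

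The number of tubulin genes that were lower in deprived cells was 6, 7, 6, 7 and 7 of 7 at 1, 2, 3, 5 and 16 h, in that order. The median difference at these times was -0.03, -0.23, -0.31, -0.79 and -1.13, and that of all genes 0.01, -0.01, 0.02, -0.01 and -0.04. Tuba1a, Tubb2a, Tubb2b, Tubb5 and Tubb6 were lower at all 5 times, as were 6.71 percent of all genes.

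**Figure D3:**
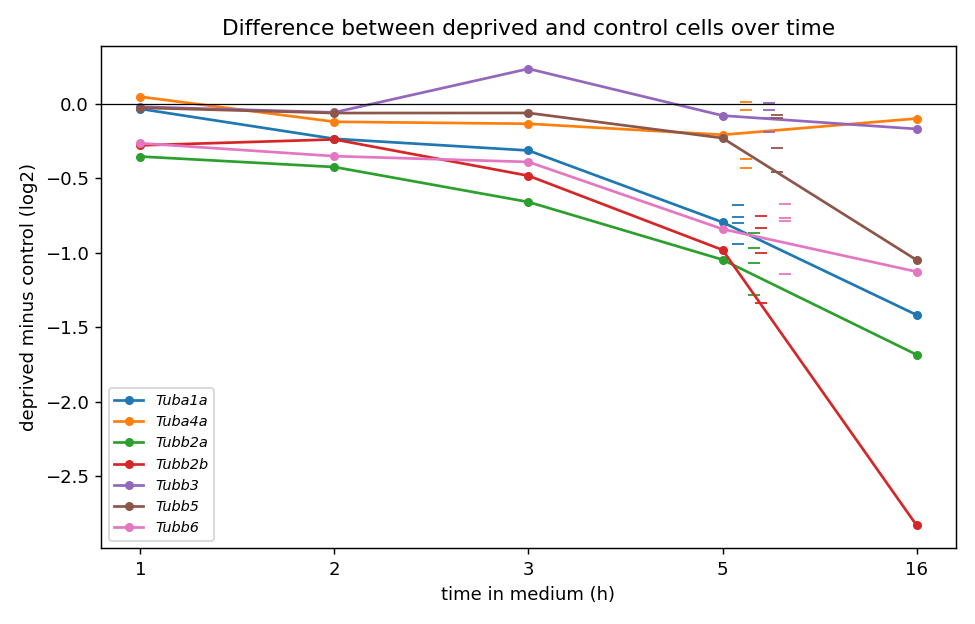
Deprived minus control log2 difference (vertical axis) of each tubulin gene against time (horizontal axis, in hours and not to scale); points at 5 h are means of 4 arrays per group, short dashes beside them the same-numbered pairs, and the other points 1 array per group. Tubb2a, Tubb2b, Tubb6 and Tuba1a lie below 0 at every time, and Tubb5 reaches -1.05 only at 16 h. The points of Tuba4a and Tubb3 stay within 0.25 of 0, while the Tuba4a pairs at 5 h run from -0.43 to 0.01.

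Rows with several symbols cover the 3 listed genes that had no row of their own, and they cannot be assigned to 1 gene. There were 7 such rows with a listed tubulin gene. The 4 rows listed for Tuba1b and Tuba1c, 3 of them also for Tuba1a, had mean 5 h levels of 13.23 to 13.55 in deprived and 13.41 to 13.72 in control cells, near the top of the table's range. The differences were -0.18 to -0.17, with SDs of at most 0.04 and no overlap between groups. The offset of array 4 was small on these rows, -0.025 to 0.004 in deprived and -0.075 to -0.042 in control cells. At 16 h these rows differed by -0.29 to -0.21. Near-identical sequences of the Tuba1 genes can also reach the row counted as Tuba1a, so its split from the other genes is uncertain, and so is that of Tubb2a from Tubb2b.

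A row shared by Tubb2a, Tubb2b and the pseudogene Tubb2a-ps2 averaged 8.65 ± 0.51 in deprived and 9.46 ± 0.44 in control cells at 5 h (SD, n = 4 each), a difference of -0.81, and differed by -1.96 at 16 h. The symbols Tubb4b, a beta isotype made in many tissues, and Zfp646 share 2 rows, whose only RefSeq accession is one of Tubb4b. These rows averaged 9.56 and 9.58 in deprived cells, against 10.34 and 10.29 in control cells, with differences of -0.79 and -0.71 and overlap through array 4. At 16 h they differed by -1.02 and -1.01. Without both arrays numbered 4, these 3 beta rows had every deprived array below every control array.

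Across all 16 arrays the levels of Tuba1a, Tubb2a, Tubb2b, Tubb5 and Tubb6 varied together, with Pearson r between 0.777 and 0.977 among these 5 genes, a group named after its values were seen. Tubb2a and Tubb6 had the highest r, 0.977, and Tubb2a with Tubb2b had 0.953. Tuba4a correlated with the others at 0.483 to 0.71, and Tubb3 at 0.309 to 0.483. These values describe 16 arrays that share the treatment, the time and the offset of the arrays numbered 4.

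The genes whose pattern over the 16 arrays was most like the mean of the 7 tubulin genes were Mgat5, Clic1, Scara3, Myh10, Tmem176a, Arpc4, Tmem176b, Mboat1, Ostc and Fam20b, with r from 0.942 to 0.963. They were ranked among the 9963 genes at or above the median level, tubulin genes left out. All 10 had lower means in deprived cells at 5 h, with differences of -0.62 to -0.34, and of -1.30 to -0.51 at 16 h. The ranking used these same 16 arrays, on which r also reflects the treatment, the time and the shared offset of some 5 h arrays. Lower values in deprived cells are thus largely built into the selection and are no separate finding. Most like Tubb2a alone were 1600012H06Rik (r = 0.962), Sdf2l1 (0.96), Fam20b (0.956), Tmem176b (0.954) and Myh10 (0.953).

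The next question was whether genes that build, fold, modify and use microtubules differed along with the tubulin genes. Their 10 lists hold 170 other measured genes, of which 5 rose and 5 fell at 5 h (limma, adjusted p under 0.05 over all genes), or 5.88 percent, against 4.11 percent of all genes (2.41 percent higher, 1.7 percent lower). With the replicate number as a block, 12 of the 170 were higher and 26 lower, or 22.4 percent, against 18.2 percent of all genes (8.22 percent higher, 10 percent lower). Without both arrays numbered 4, 11 were higher and 20 lower, or 18.2 percent, against 13.5 percent of all genes (6.34 percent higher, 7.17 percent lower). After a second quantile normalization 6 were higher and 12 lower. Leaving out deprived array 1, 2 or 3 gave 5, 6 and 6 of the 170. The median difference of the 170 genes was -0.04. Over all genes 820 passed, and 382, 424 and 431 did so without deprived array 1, 2 or 3 and 486, 424 and 521 without control array 1, 2 or 3.

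None of the 10 other tubulin genes (gamma, delta, epsilon and further alpha and beta genes) passed, and their median difference was -0.11. None of the 11 partners of the gamma-tubulin ring complex, which nucleates microtubules, passed either (median 0.04). The 16 genes of the CCT chaperonin and prefoldin, which fold new tubulin chains, had a median of -0.04 with none past the threshold. With the block 2, 0 and 3 genes of these lists were lower and none higher, and without both arrays numbered 4 there were 2, 0 and 1 lower and none higher. Of 8 tubulin folding cofactor genes Tbcel, related to cofactor E, rose by 0.44 (SE 0.08), with deprived arrays at 9.19 to 9.32 and control arrays at 8.72 to 8.94 (adjusted p = 0.0114 in limma, and 0.055 without deprived array 1). The median of this list was -0.14, and the block gave 2 higher and 3 lower genes in it, leaving out both arrays numbered 4 giving 2 and 2.

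None of the 14 genes of tubulin mRNA autoregulation, Ttc5 and Scaper with the CCR4-NOT deadenylase, passed at 5 h, with a median of 0.01. With the block 1 was higher and 1 lower, and without both arrays numbered 4 none passed. The mRNA level of these genes says nothing of the activity of their products. Of 26 tubulin modifying enzymes Ttll4, a glutamylase, rose by 0.32 (SE 0.07, adjusted p = 0.0388 in limma). Tpgs2, a subunit of a polyglutamylase, fell by 0.59 (SE 0.09, adjusted p = 0.00746). Ttl, which puts the tyrosine back on alpha tubulin, fell by 0.38 (SE 0.07, adjusted p = 0.017). Ttl and Ttll4 lost their calls when any 1 of arrays 1 to 3 of either group was left out, and Ttll4 also without deprived array 4 and under the trended and robust variance prior. Over all alternatives their adjusted p reached 0.0669 for Ttl and 0.143 for Ttll4. The list had 3 higher and 4 lower genes with the block, and 2 higher and 4 lower without both arrays numbered 4.

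Among proteins that stabilize microtubules, 1 of 21 genes passed. Map1a, a microtubule-associated protein of mature neurons, fell by 0.85 (SE 0.12), with deprived arrays at 7.86 to 8.38 and control arrays at 8.78 to 9.13 (adjusted p = 0.00468 in limma). It differed by -0.10, -0.54 and -0.48 at 1, 2 and 3 h and by -0.96 at 16 h, and at 5 h by -0.88 without both arrays numbered 4. The list had the same count, 1 lower, in that fit and with the block. Of 19 genes for plus-end proteins Mapre2, which codes for the end-binding protein EB2, fell by 0.55 (SE 0.08, adjusted p = 0.00615), and with the block 1 gene of this list was higher and 6 were lower, against 2 and 5 without both arrays numbered 4. None of 17 genes for severing and destabilizing proteins passed, while 1 was higher and 3 were lower with the block, and 1 and 2 without both arrays numbered 4.

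The motor genes went both ways. Of 28 kinesin and dynein genes, Kif21b, a kinesin that acts on microtubule growth, rose by 1.38 (SE 0.10), with deprived arrays at 9.38 to 9.44 and control arrays at 7.82 to 8.30 (adjusted p = 0.000153 in limma). The dynein light intermediate chain genes Dync1li1 and Dync1li2 rose by 0.59 (SE 0.11, adjusted p = 0.0145 in limma) and 0.47 (SE 0.07, adjusted p = 0.00554). Dynll1, a light chain of dynein that also binds many other proteins, fell by 0.35 (SE 0.07, adjusted p = 0.0305). Dync1li1 did not pass without deprived array 1, 2 or 3, and Dynll1 lost its call when any 1 of arrays 1 to 3 of either group was left out, with adjusted p of up to 0.0618 and 0.114 over all alternatives. The list's median difference was -0.03, and it had 4 higher and 3 lower genes both with the block and when both arrays numbered 4 were left out.

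**Figure D4:**
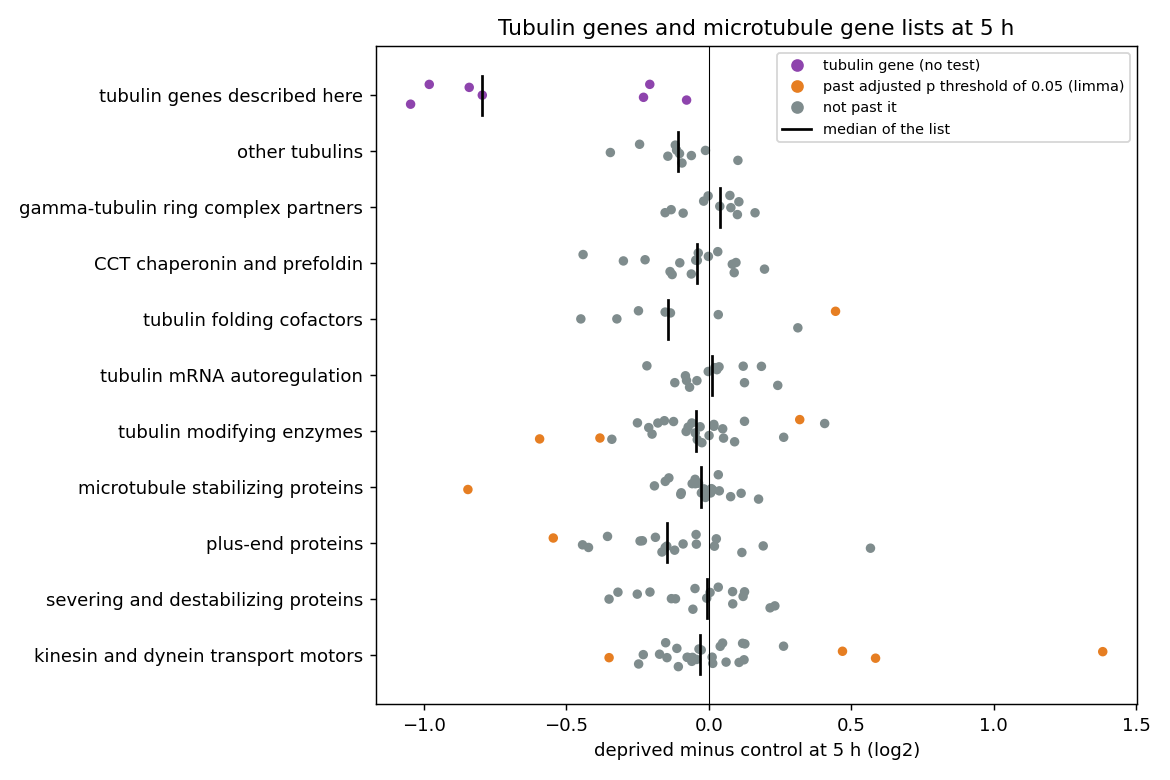
Deprived minus control log2 difference at 5 h (horizontal axis) for the 7 tubulin genes and for each gene of the 10 microtubule lists (rows); black bars are list medians, orange points passed the adjusted p threshold in limma, and purple points carry no test. The tubulin median is -0.79, and the list medians lie between -0.15 and 0.04.

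Other cytoskeletal and mitotic genes were read from the same fit. None of 5 actin genes passed (median -0.23). With the block 3 were lower, where 10 percent of all genes were, and leaving out both arrays numbered 4 also gave 3, where 7.17 percent of all genes were lower. Of 17 intermediate filament genes, Sync, which codes for syncoilin, fell by 1.06 (SE 0.08, adjusted p = 0.000175 in limma). Nes, which codes for nestin, a marker of neural progenitors, fell by 0.69 (SE 0.12, adjusted p = 0.00923) and was the 1 gene of 8 progenitor markers to pass. Des, which codes for desmin, fell by 0.34 (SE 0.08, adjusted p = 0.0377) and lost its call when any 1 of the 8 arrays was left out (adjusted p up to 0.138 over all alternatives). The intermediate filament list had 6 lower genes with the block, and 4 when both arrays numbered 4 were left out. None of 17 mitosis genes passed, with a median of -0.14. The block gave 7 lower genes, against 10 percent of all genes, and leaving out both arrays numbered 4 gave 4, against 7.17 percent of all genes.

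For the times with 1 array per group, limma tested the deprived minus control difference averaged over 1, 2, 3 and 16 h in a model that also holds time. No gene passed, of the 170 or of all 19938, or 0 percent, while 11 of the 170 and 1244 of all genes had an unadjusted p under 0.05. The model takes the difference as constant over these times, so one that grows with time counts as error. Trib3, with differences of 0.37, 1.22, 1.69 and 2.59 at 1, 2, 3 and 16 h, did not pass either. The absence of calls therefore does not show an absence of change. With the 16 h arrays left out 35 genes passed, among them Tbcc, which codes for tubulin folding cofactor C (-0.67, SE 0.10, adjusted p = 0.0457 in limma).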

How the data were processed

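Per the labels' protocols, total RNA of N25/2 cells was amplified, biotinylated and measured on Affymetrix arrays. The authors' deposited values are log2 expression, and the submitters' processing notes name RMA (robust multi-array average) and limma with no version; background and summary settings are not given in the sources used here. The table has 35556 rows for 16 arrays, and no further normalization was applied.

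The platform annotation gives 1 symbol for 21789 rows, several for 1621 and none for 12146. Symbols were updated by Entrez identifier (21698 matched). The row with the highest mean over the 16 arrays was kept for each gene, which left 19938 genes; each measured tubulin gene had 1 row of its own. The fit at 5 h (4 deprived against 4 control arrays) used lmFit and eBayes of limma 3.58.1 under R 4.3.3. Its tests were two-sided, with Benjamini-Hochberg adjustment over all genes and a threshold of 0.05. The difference averaged over the other times was tested with time as a factor. SE is limma's standard error.

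Deviations from the group means correlated between same-numbered arrays at 0.354, 0.584, 0.467 and 0.896. Each exceeds 0.1, the setting for treating same-numbered arrays as pairs, so a fit with the replicate block was run as an alternative. The group means include the arrays numbered 4, which stood apart in both groups, so the remaining arrays share an opposite shift. That shift alone can make their correlations positive, and no correlations between arrays of different numbers are given for comparison. These values therefore cannot decide whether same-numbered arrays other than those numbered 4 are pairs. No label says what the numbers stand for. Other alternatives changed normalization, filter, rows, variance prior, weights and arrays. Per-list counts with the block and without the arrays numbered 4 were added after the data were seen. Data of 19938 genes were simulated with noise independent between genes and arrays. An offset shared over genes, as on the arrays numbered 4, was not simulated, so the false calls do not cover it. On the simulated data the 5 h test recovered 38.8, 82.5 and 95 percent of genes changed by 0.5, 1 and 2 (log2), with 5 false calls. With the replicate block, on data simulated without a pair effect, it recovered 8.8, 67.5 and 95 percent, with 7 false calls.

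Tubulin genes and gene lists were chosen with earlier results of these data known. Named in each list were up to 6 genes past the threshold at 5 h by size; likeness was ranked by Pearson r. The number of arrays limits the precision. Python 3.11.15, numpy 2.4.6, pandas 2.3.3 and matplotlib 3.10.9 were used.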

Additional observations from a re-analysis of the deposited data

Results flagged for a closer look

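The 5 h groups of 4 arrays were searched for a sample far from the rest in 27 named genes, 54 groups in all, of which chance marks about 1 in 20. There were 2. Tuba1a stood at 12.90 on control array 4, with the other controls at 12.27 to 12.35, and its difference between deprived and control cells was -0.79 with all arrays and -0.81 without both arrays numbered 4. Atf3, a gene of the amino acid response, was at 7.90 on control array 4, with the other controls at 8.62 to 8.73. Its difference of 1.84 (SE 0.21, adjusted p = 0.00115 in limma) was 1.74 without both arrays numbered 4.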

How the results depend on the processing

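The median difference of the 7 tubulin genes at 5 h, -0.79, kept its sign in all 17 alternatives (-0.95 to -0.64), as did each gene's own difference. All stayed within the spread between replicates, which for most of these genes the arrays numbered 4 widen. The replicate block, the variance prior and the fit of all arrays together cannot move a difference of means, so they do not check it. With 1 row per tubulin gene, the mean of rows cannot move it either. The filter on dim genes cannot move a single gene's difference. Tubb3 had 16 alternatives, since this filter left it out. Tubb2a ran from -1.25 to -0.87, Tubb2b from -1.22 to -0.81, Tubb6 from -0.95 to -0.75 and Tuba1a from -0.96 to -0.64. Tuba4a ran from -0.31 to -0.12, with -0.12 without deprived array 3, Tubb5 from -0.35 to -0.16, with -0.35 without deprived array 4, and Tubb3 from -0.11 to -0.05. Counts of calls moved more. Of all genes, 820 passed at 5 h, against 3632 with the replicate block, 5485 with array weights and 2695 with both arrays numbered 4 left out; leaving out 1 array gave 382 to 1066. Of the microtubule genes 10 passed, against 38 with the block, 57 with array weights, 31 with both arrays numbered 4 left out, and 18 after another quantile normalization (6 higher and 12 lower, in place of 5 and 5); leaving out 1 array gave 5 to 15. Over the times with 1 array per group, leaving out 1 time gave 0 to 35 of all genes and 0 to 1 microtubule genes, and the other alternatives gave 0. Of 20 list genes that passed at 5 h, 14 passed in all 17 alternatives; the other 6 (Des, Dync1li1, Dynll1, Tbcel, Ttl and Ttll4) kept their direction, and each passed under the block, and also with both arrays numbered 4 left out. Low signal limits what can be said of Tubb3.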

Other observations

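The replicate block raised the share passing at 5 h from 4.11 to 18.2 percent of all genes, and from 5.88 to 22.4 percent of the 170 microtubule genes. It treats all same-numbered arrays as pairs, which was not settled for those not numbered 4. In all, 28 microtubule genes did not pass at 5 h but did so in the fit with the replicate block (limma, adjusted over all genes). Without both arrays numbered 4, 20 of them passed and 8 did not: Pfdn5, Pfdn6, Tbca, Cnot2, Cnot6, Agbl3, Nav3 and Kif2c, with adjusted p of 0.0531 to 0.184. The genes below are named after their values were seen. Among tubulin folding cofactors, Tbcb averaged 8.34 ± 0.40 in deprived and 8.79 ± 0.57 in control cells (SD, n = 4 each), a difference of -0.45 (SE 0.08, adjusted p = 0.00231 with the block and 0.636 without it). Tbcc differed by -0.32 (adjusted p = 0.00642 and 0.496) and Tbce, which acts with them on dimer assembly, by 0.31 (0.00385 and 0.332). The plus-end genes Clip2, Nav1 and Mapre1 differed by -0.44, -0.42 and -0.36 and Ndel1, a regulator of dynein, by 0.57, with adjusted p of 0.000366, 0.000478, 0.00564 and 0.000164 with the block and 0.0975, 0.107, 0.0639 and 0.114 without it. Tubg1, a gamma-tubulin gene, differed by -0.24 (adjusted p = 0.017 and 0.493). On the single arrays of 1 h, Ndel1 differed by -0.69 and Nav1 by 0.37, opposite in sign to 5 h. Clip2 and Mapre1 differed by -0.02 and -0.20 at 1 h. These 8 genes, from Tbcb to Tubg1, are among the 20 that also passed without both arrays numbered 4.

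Lmnb1, a nuclear lamin gene, differed by -0.59 (adjusted p = 0.000256 with the block and 0.332 without it in limma). Of the mitosis genes that passed with the block, Kif20a and Kif23, kinesins of cell division, differed by -0.41 and -0.39 and Plk1, a mitotic kinase, by -0.35. Their adjusted p were 0.00135, 0.00113 and 0.00192 with the block and 0.318, 0.171 and 0.0812 without it.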
